A study of Bos grunniens and Bos grunniens x Bos taurus with 2 samples.

Results

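Of the 26961 genes in the yak annotation used for the count matrices, 6 make up the set described here: the synaptonemal complex genes *SYCP1*, *SYCP2*, *SYCP3*, *SYCE1* and *TEX12* and the meiotic cohesin gene *SMC1B*. They were chosen by symbol, and each symbol matched 1 feature. The identifiers are ENSBGRG00000024249 (*SYCP2*), ENSBGRG00000000767 (*SYCP3*), ENSBGRG00000006966 (*SYCP1*), ENSBGRG00000018058 (*SYCE1*), ENSBGRG00000008586 (*TEX12*) and ENSBGRG00000000470 (*SMC1B*).

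The study applied droplet single-cell RNA sequencing to the testis in order to describe the cells of spermatogenesis. Testis tissue that had been frozen was thawed, digested with enzymes to single cells and sequenced as 1 library from a yak (*Bos grunniens*), 4 years of age, and 1 library from a cattle-yak, the hybrid of yak and cattle (*Bos grunniens* x *Bos taurus*). Both samples were taken after sexual maturity. The labels call the cells germ cells, but by markers germ-like cells were a minority in both libraries. Each library came from 1 animal, so cells are not replicates, no test of a difference was made, and the 95% intervals below cover counting error only. A comparison of the libraries therefore compares 2 libraries and not the crosses.

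Meiosis pairs homologous chromosomes and exchanges DNA between them before they are separated. During meiotic prophase, each chromosome is organised along a protein axis built on cohesin rings, and the axes of paired homologues are joined by a ladder-like structure, the synaptonemal complex, which is taken apart before the meiotic divisions. Male mice without a working synaptonemal complex are infertile, and in hybrid males of several mammals chromosome pairing is disturbed.

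The yak library held 11991 cells and 60816600 unique molecular identifiers (UMIs, each counting 1 captured RNA molecule), with a median of 2533 UMIs per cell. The cattle-yak library held 8930 cells and 43774841 UMIs, with a median of 3155. Mitochondrial transcripts made up 13.1% and 22.2% of all UMIs. In the yak library the authors had assigned 1127 cells to spermatogonial stem cells (SSC, 84 cells), spermatogonia (SPG, 486), early spermatocytes (Early-SPC, 72), late spermatocytes (Late-SPC, 261) and spermatids (SPT, 224), with medians of 1605, 980, 1800, 1168 and 906 UMIs per cell. They had used *SYCP1*, *SYCP2* and *SYCE1* among the genes that name spermatocytes, so the differences between these types are a description. They also called *SYCP3* a classic marker gene and reported its expression as specific to Early-SPC. Somatic classes were rebuilt by clustering with the 6 genes left out. Each cell is identified by its library and barcode, since 24 barcodes were shared.

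Levels are given as counts per 1000000 UMIs (CPM), summed over all cells of a group. CPM values of different genes are not corrected for transcript length and are compared here between groups of cells and not between genes. The sum of the 6 genes was 359 CPM in SSC (95% interval 271 to 468), 921 in SPG (847 to 1000), 6574 in Early-SPC (6279 to 6878), 1667 in Late-SPC (1553 to 1787) and 390 in SPT (320 to 472). Early-SPC were thus 7.14 times as high as SPG (6.49 to 7.85) and 3.94 times as high as Late-SPC (3.63 to 4.29), and the intervals of SSC and SPT overlapped. The somatic classes of the yak together, 7574 cells, were at 38.1 CPM, which put Early-SPC 173-fold above them (160 to 186).

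**Figure D1:**
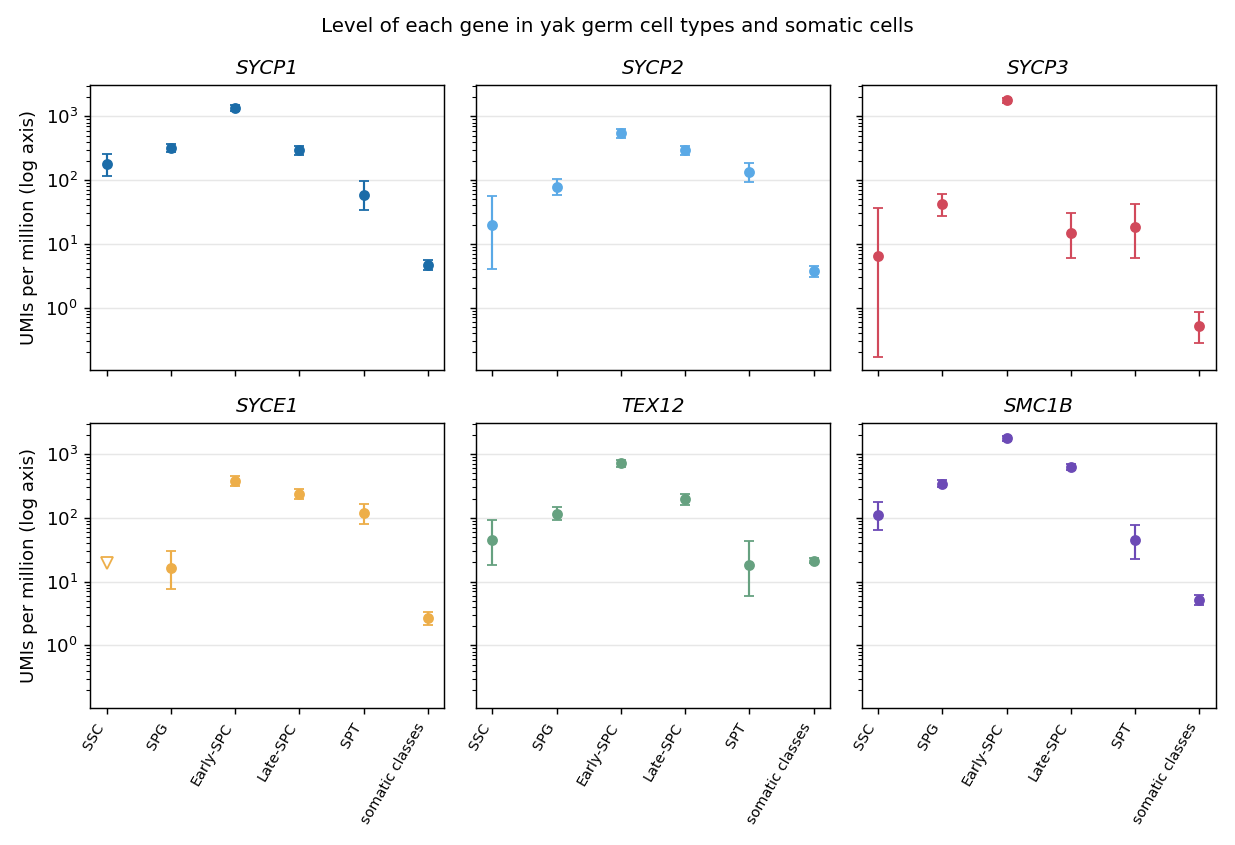
Level of each of the 6 genes in the authors' 5 germ cell types of the yak and in the rebuilt somatic classes, in CPM on a log axis, with points for summed counts, bars for exact 95% Poisson intervals and open triangles for the limit that 3 counts set where none was found. *SYCP3* reached 1787 CPM in Early-SPC and 14.7 in Late-SPC, whereas *SYCE1* was at 379 and 239.

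*SYCP3* and *SYCP2* encode proteins of the chromosome axis, which become the lateral elements of the synaptonemal complex. *SYCP3* was at 6.53 CPM in SSC (1 UMI), 42.0 in SPG (27.4 to 61.6), 1787 in Early-SPC (1635 to 1950), 14.7 in Late-SPC (5.91 to 30.3) and 18.4 in SPT (5.98 to 43.0). Early-SPC were 42.5-fold above SPG (28.7 to 65.8) and 122-fold above Late-SPC (58.6 to 304), with 509 UMIs against 7 in the latter, and the interval of the second ratio lay above those of the other 5 genes. Late-SPC and SPT could not be told apart for *SYCP3*, at a ratio of 0.798 (0.218 to 3.19). *SYCP2*, its partner in the axis, was at 19.6 CPM in SSC (4.04 to 57.3), 79.2 in SPG (58.6 to 105), 548 in Early-SPC (465 to 641), 294 in Late-SPC and 133 in SPT (92.8 to 183). It was 6.92-fold higher in Early-SPC than in SPG but only 1.86-fold higher than in Late-SPC, and Late-SPC lay 3.71-fold above SPG (2.66 to 5.25), the reverse of the order for *SYCP3*, for which Late-SPC were at 0.350 of SPG (0.128 to 0.827).

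*SYCP1* encodes the transverse filament that spans the space between the paired axes. Its levels were 176 CPM in SSC (116 to 257), 323 in SPG (280 to 371), 1359 in Early-SPC (1227 to 1501), 294 in Late-SPC (247 to 347) and 58.9 in SPT (33.7 to 95.7). Early-SPC were 4.20-fold above SPG (3.54 to 5.01), and SPG and Late-SPC did not differ beyond counting error, at a ratio of 0.909 (0.727 to 1.13). *SYCP1* was among the members already present in the spermatogonia, 1.83-fold higher in SPG than in SSC (1.22 to 2.85).

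*SYCE1* and *TEX12* encode proteins of the central element, which holds the transverse filaments together at the midline. *SYCE1* was not counted in SSC, where 3 counts would have been 19.6 CPM, and was at 16.2 CPM in SPG (7.75 to 29.7), 379 in Early-SPC (311 to 458), 239 in Late-SPC (197 to 288) and 118 in SPT (80.6 to 166). The ratio of Early-SPC to SPG was 23.5 (12.3 to 50.3), that of Late-SPC to SPG 14.8 (7.77 to 31.7), and that of Early-SPC to Late-SPC only 1.58. *TEX12* was at 45.7 CPM in SSC (18.4 to 94.2), 116 in SPG (91.0 to 147), 716 in Early-SPC (621 to 822), 195 in Late-SPC (158 to 239) and 18.4 in SPT. Late-SPC were 10.6-fold above SPT for *TEX12* (4.39 to 33.4) and 2.03-fold for *SYCE1* (1.36 to 3.11), so the pair of central element genes differed in the last step.

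*SMC1B* encodes the meiosis-specific SMC subunit of the cohesin ring. It was at 111 CPM in SSC (64.7 to 178), 344 in SPG (300 to 394), 1784 in Early-SPC (1632 to 1946), 630 in Late-SPC (561 to 705) and 44.2 in SPT (22.8 to 77.2). Early-SPC were 5.18-fold above SPG and 2.83-fold above Late-SPC, and Late-SPC were 14.3-fold above SPT (8.04 to 27.9), with an interval that overlapped that of *TEX12*.

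For the comparison with other genes, a gene counted as higher or lower when the log2 ratio of CPM + 1 was at least 1 in size and the groups together held at least 20 counts. From SPG to Early-SPC, 6 of 6 members were higher and 0 lower, beside 24.8% higher and 35.9% lower of the 5454 genes tested, and the median log2 ratio was 2.69 for the members and −0.27 for all genes. Between Early-SPC and Late-SPC, 4 of 6 members (*SYCP1*, *SYCP3*, *TEX12* and *SMC1B*) were higher in Early-SPC and 0 lower, beside 28.3% and 39.4% of 4968 genes, with medians of 1.69 for the members and −0.35 for all genes. Between Late-SPC and SPT, 5 of the 5 members tested were higher in Late-SPC and 0 lower, beside 27.9% and 21.1% of 5138 genes, and *SYCP3* had too few counts. Between SSC and SPG, 4 of the 5 members tested were lower in SSC and 0 higher, beside 23.3% and 7.53% of 5035 genes, and *SYCE1* had too few counts. Between Late-SPC and SPG, 2 members (*SYCP2* and *SYCE1*) were higher and 1 (*SYCP3*) lower in Late-SPC, beside 27.1% and 29.2% of 6342 genes. Against the somatic classes, 6 of 6 members were higher and 0 lower in Early-SPC, beside 24.5% and 46.8% of 13650 genes, and 6 of 6 higher and 0 lower in SPG, beside 23.8% and 16.1% of 13663. In SPT, 4 of 5 members were higher and 0 lower than in the somatic classes, beside 26.7% and 35.4% of 13741 genes, and *TEX12* was not, at a ratio of 0.860 (0.278 to 2.02).

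Markers of somatic cells were also present in cells typed as germ cells. The summed endothelial list was at 2045 CPM in SSC, 472 in SPG, 80.8 in Early-SPC, 319 in Late-SPC and 372 in SPT, and *PECAM1*, an endothelial adhesion molecule, was at 1182 CPM in SSC against 1078 in the endothelial-like (EC-like) class itself. The summed smooth muscle list was at 4509 CPM in SPG and 541 in Early-SPC. A total of 66 of the 84 SSC fell into a single cluster led by *BMX* and *PTGS2*. *PECAM1* was also higher in Late-SPC (143 CPM) and SPT (121) than in Early-SPC. Of the 261 Late-SPC, 83 fell into a cluster led by *CA4*, *HIGD1B* and *CXCL12*, with *PECAM1* at 382 CPM. The part of somatic RNA in the low member levels of SSC and SPG, and in the levels of Late-SPC and SPT, was not tested. The ratios of Early-SPC to Late-SPC and of Late-SPC to SPT carry the same limit. The germ cell markers themselves followed the type names except in SSC. *UCHL1*, a spermatogonial marker, was at 1028 CPM in SPG, 133 in Early-SPC and 281 in SSC. *DMRT1*, also of spermatogonia, was at 228 in SPG and 32.7 in SSC (5 UMIs). *MEIOB*, a recombination gene, was at 590 in Early-SPC and 160 in Late-SPC. *PIWIL1*, a pachytene piRNA protein, was at 14 in Early-SPC and 414 in Late-SPC, and *ACRV1*, an acrosome protein, at 582 in SPT.

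The Early-SPC levels were spread over many cells. The median Early-SPC cell held 4 UMIs of *SYCP3*, 3 of *SMC1B*, 1 each of *SYCP1*, *SYCE1* and *TEX12* and 0 of *SYCP2*. The cell with most *SYCP3* held 30 UMIs, 5.9% of the total, and without it the level was 1746 CPM, and for each of the 6 genes the top cell held between 5.5% and 9.0%. At least 1 UMI of any member was found in 93.1% of Early-SPC, 54.8% of Late-SPC, 53.3% of SPG, 42.9% of SSC and 34.8% of SPT. Since detection depends on depth, each cell was also thinned to 500 UMIs, at which depth no cell of these types was too shallow. The share was then 90.3% of Early-SPC (81.0 to 96.0), 38.3% of Late-SPC, 32.5% of SPG and 19.2% of SPT.

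Somatic cells gave the background of these shares. Before and after thinning, a UMI of any member was found in 6.93% and 1.23% of EC-like cells (median 4021 UMIs) and in 15.2% and 4.42% of T and natural killer cells (T/NK-like, median 1946 UMIs, against 1800 in Early-SPC). *SYCP3* was found in 83.3% and 52.8% of Early-SPC and in 0.190% and 0.0271% of T/NK-like cells. *SMC1B* was found in 76.4% and 56.9% of Early-SPC, and *TEX12* in 61.1% and 26.4%. T/NK-like cells held *SYCP1* in 1.22% and 0.434%. *TEX12* was found in 10.8% and 2.98% of T/NK-like cells but in 1.33% and 0.190% of EC-like cells. T/NK-like cells had been planned as the type that should lack the genes. For *TEX12* and for any member the EC-like share was used as a second background, chosen after these values were seen. In Late-SPC, *SYCP3* was found in 1.92% of cells unthinned and in 0 of 261 after thinning.

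The members were found together in the same cells. At least 3 of the 6 genes had a UMI in 50 of 72 Early-SPC (69.4%), 61 of 261 Late-SPC (23.4%), 30 of 486 SPG (6.17%), 3 of 224 SPT (1.34%) and 0 of 84 SSC. All 6 genes were found in 26 Early-SPC (36.1%), with a median of 4.5 genes per cell, and in 0 Late-SPC. The cells were not thinned for these counts, and the types differed in depth.

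The make-up of the 6-gene sum changed between types. *SYCP3* gave 4.56% of the members' UMIs in SPG, 27.2% in Early-SPC and 0.882% in Late-SPC. *SYCE1* gave 1.75%, 5.77% and 14.4% in the same order. *SYCP1* gave 35.1% in SPG. These shares do not depend on the other genes of the library.

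A large part of the members' UMIs lay outside the typed cells. The typed cells held 2.97% of all UMIs of the yak library, but 32.8% of those of *SYCP3*, 14% of *TEX12*, 13.0% of *SYCP1*, 11.8% of *SMC1B*, 10.8% of *SYCP2* and 7.83% of *SYCE1*. Cells above the upper limits of genes or UMIs (the mean + 2 standard deviations of the library) numbered 790 below the mitochondrial limit and held 37.3% of all UMIs, against 83.4% of those of *SYCE1*, 74.1% of *SYCP2*, 73.7% of *SMC1B*, 68.6% of *SYCP1*, 49.3% of *TEX12* and 34.1% of *SYCP3*. In the cattle-yak library the cells above the limits held 26.8% of all UMIs and between 46.6% (*SYCP3*) and 71.2% (*SYCP1*) of those of the members. Most UMIs of *SYCP1*, *SYCP2*, *SYCE1* and *SMC1B* in both libraries thus lay in cells that these rebuilt upper limits leave out. The study kept fewer yak cells than the limits used here, so its own filter was not reproduced. Large cells and doublets both give high UMI counts. The doublet caller called 0 of 11991 cells in the yak library, too few for its calls to be relied on, and no cell was removed as a doublet.

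**Figure D2:**
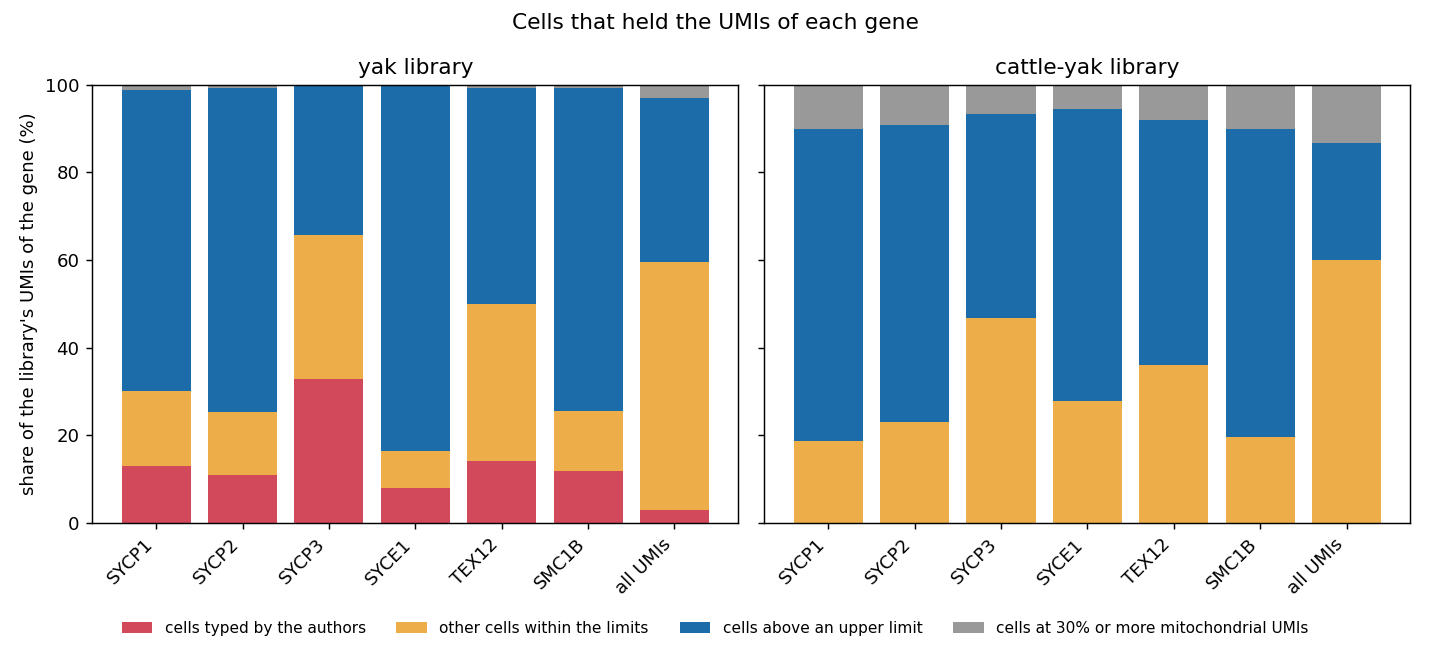
Share of each gene's UMIs, and of all UMIs, in percent, by where they lay in each library: cells typed by the authors (yak only), other cells within the limits, cells above the upper limits, and cells at or above the mitochondrial limit. Cells above the upper limits held 83.4% of *SYCE1* in the yak library, against 37.3% of all UMIs.

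To describe these deep cells, germ-like cells of any depth were clustered in each library with the 6 genes and the other genes of the pathway left out, which gave 1749 germ-like cells in the yak and 330 in the cattle-yak. Clusters with a median of at least 4000 UMIs were described singly, a limit chosen after the values had been seen, which took 7 of 18 yak clusters and 8 of 8 cattle-yak clusters. The other 11 yak clusters had medians of 791 to 3444 UMIs. Each described cluster is called by the highest of 5 stage markers, *UCHL1*, *MEIOB*, *PIWIL1*, *CCNA1* and *ACRV1*, and the members played no part in making the clusters. In all, the 412 yak germ-like cells above the upper limits held *SMC1B* at 489 CPM, *SYCP1* at 303, *SYCE1* at 210, *SYCP2* at 195, *TEX12* at 98.7 and *SYCP3* at 42.6.

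In the yak, the members differed in level from cluster to cluster. The clusters are listed in the order of their stage markers, and no order in time was measured. A cluster of 108 cells with *UCHL1* at 1449 CPM and led by *CHRNB4*, *DUSP26* and *MORC1* held *SYCP1* at 533 CPM, *SMC1B* at 416, *SYCP2* at 144, *TEX12* at 135, *SYCP3* at 31.5 and *SYCE1* at 22.7. A second *UCHL1* cluster, of 169 cells, held *SYCP1* at about the same level (546) but *SYCP3* at 218 (201 to 236) and *SMC1B* at 848, while *SYCE1* stayed at 27.6. The cluster with the highest *MEIOB*, of 78 cells, 57 of them Early-SPC, held *SYCP3* at 1826 (1708 to 1951), *SMC1B* at 1942, *SYCP1* at 1735 (1620 to 1857), *TEX12* at 741, *SYCP2* at 629 and *SYCE1* at 331.

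The cluster with the highest *PIWIL1*, of 99 cells, 58 of them Late-SPC, held *SMC1B* at 1286, *SYCP1* at 692, *SYCP2* at 663, *SYCE1* at 342 and *TEX12* at 307, but *SYCP3* at 22.8 (16.0 to 31.6). The *MEIOB* cluster was 80.0-fold above the *PIWIL1* cluster for *SYCP3* (57.4 to 115), 2.51-fold for *SYCP1* (2.29 to 2.75), 2.42-fold for *TEX12* and 1.51-fold for *SMC1B*. For *SYCP2* the ratio was 0.949 (0.833 to 1.08) and for *SYCE1* 0.968 (0.806 to 1.16), neither beyond counting error of the summed counts. Deep cells weigh most in these sums. In the median cell *SYCP2* was at 336 CPM in the *MEIOB* cluster (lower quartile 0) and 700 in the *PIWIL1* cluster (374). *SYCE1* was at 266 and 194.5 in the same way. A total of 3 of 6 members were lower and 0 higher in the *PIWIL1* cluster by a log2 ratio of at least 1, beside 24.9% and 40.5% of 6833 genes. *SYCP2* and *SYCP3*, which encode partners in the same axis, therefore had different patterns across these clusters.

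The cluster with the highest *CCNA1*, a cyclin of late meiotic prophase, comprised 86 cells with a median of 34143 UMIs. It held 1 UMI of *SYCP3* among 3712479 (0.269 CPM). *SYCE1* was at 394 CPM there, slightly above the *PIWIL1* cluster (the *PIWIL1* to *CCNA1* ratio was 0.869, 0.785 to 0.959), whereas the same ratio was 11.6 for *TEX12* (9.34 to 14.6), 10.4 for *SYCP1* (9.01 to 11.9), 4.78 for *SYCP2* and 2.91 for *SMC1B*. In the median cell *SYCE1* was at 396 CPM in the *CCNA1* cluster and 194.5 in the *PIWIL1* cluster, a larger difference than in the sums. From the *PIWIL1* to the *CCNA1* cluster 5 of 6 members were lower and 0 higher, beside 24.1% and 20.4% of 8321 genes, and the exception was *SYCE1*.

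The pair of clusters with high *ACRV1* (782 and 1212 CPM) held 1 UMI of *SYCP3* each. Of these, the cluster of 103 cells had *SYCE1* at 301 CPM, *SYCP1* at 138, *SMC1B* at 125, *SYCP2* at 60.2 and *TEX12* at 10.9. Its median cell held 0 UMIs of *SYCP1*, *SYCP2*, *TEX12* and *SMC1B*, and 27 of its cells held no member. A single cell held 16.9% of its *SMC1B* UMIs, and without it the level was 111 CPM. The cluster of 104 cells had *SYCP2* at 175, *SYCE1* at 160, *SYCP1* at 50.8, *SMC1B* at 20.3 and *TEX12* at 2.03. In the latter cluster, where the acrosome marker was highest, *SYCE1* and *SYCP2* gave 39.2% and 42.8% of the members' UMIs.

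**Figure D3:**
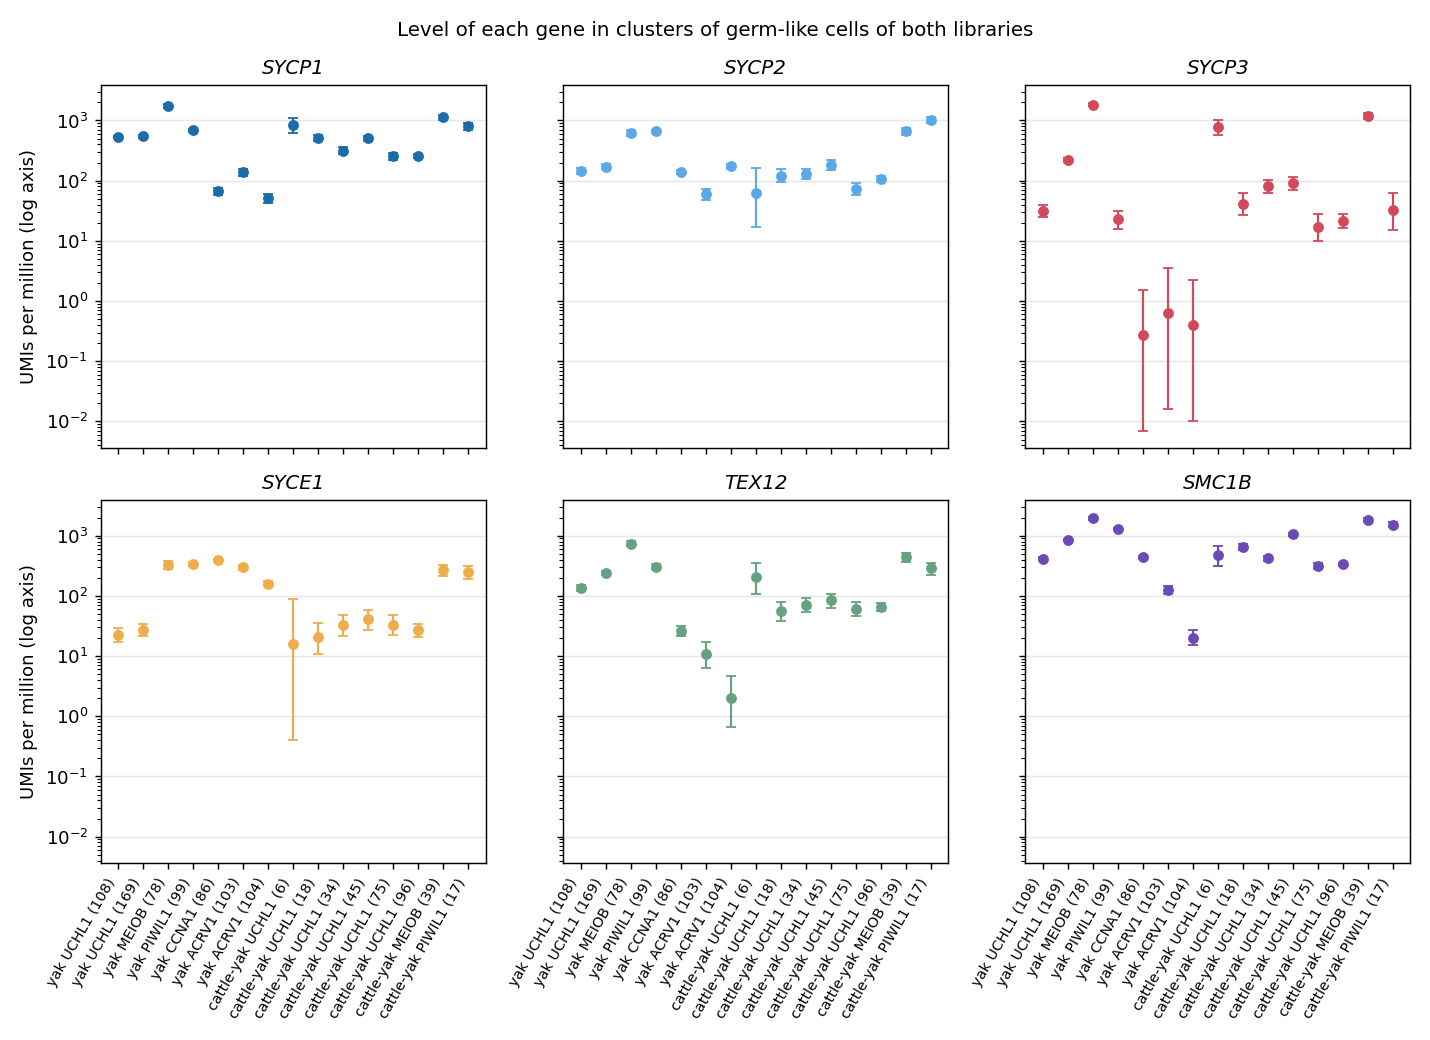
Level of each gene in the clusters of germ-like cells of any depth, in CPM on a log axis with exact 95% Poisson intervals, for 7 clusters of the yak and 8 of the cattle-yak, each named by its highest stage marker with its number of cells. *SYCP3* was at 1826 CPM in the yak *MEIOB* cluster and 22.8 in the *PIWIL1* cluster, while *SYCE1* was at 331 and 342.

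Cells of these clusters were deep enough for several members to be seen per cell. At least 3 members were found in 58 of 78 cells of the *MEIOB* cluster, 86 of 99 of the *PIWIL1* cluster, 82 of 86 of the *CCNA1* cluster and 161 of 169 of the second *UCHL1* cluster. All 6 were found in 40, 15, 1 and 41 cells in the same order. The cells were not thinned here, and these clusters had medians of 6083, 5235, 34143 and 15524 UMIs. The counts therefore cannot be compared between clusters. In the *ACRV1* cluster of 104 cells, 56 cells had at least 3 members and 0 had all 6.

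**Figure D4:**
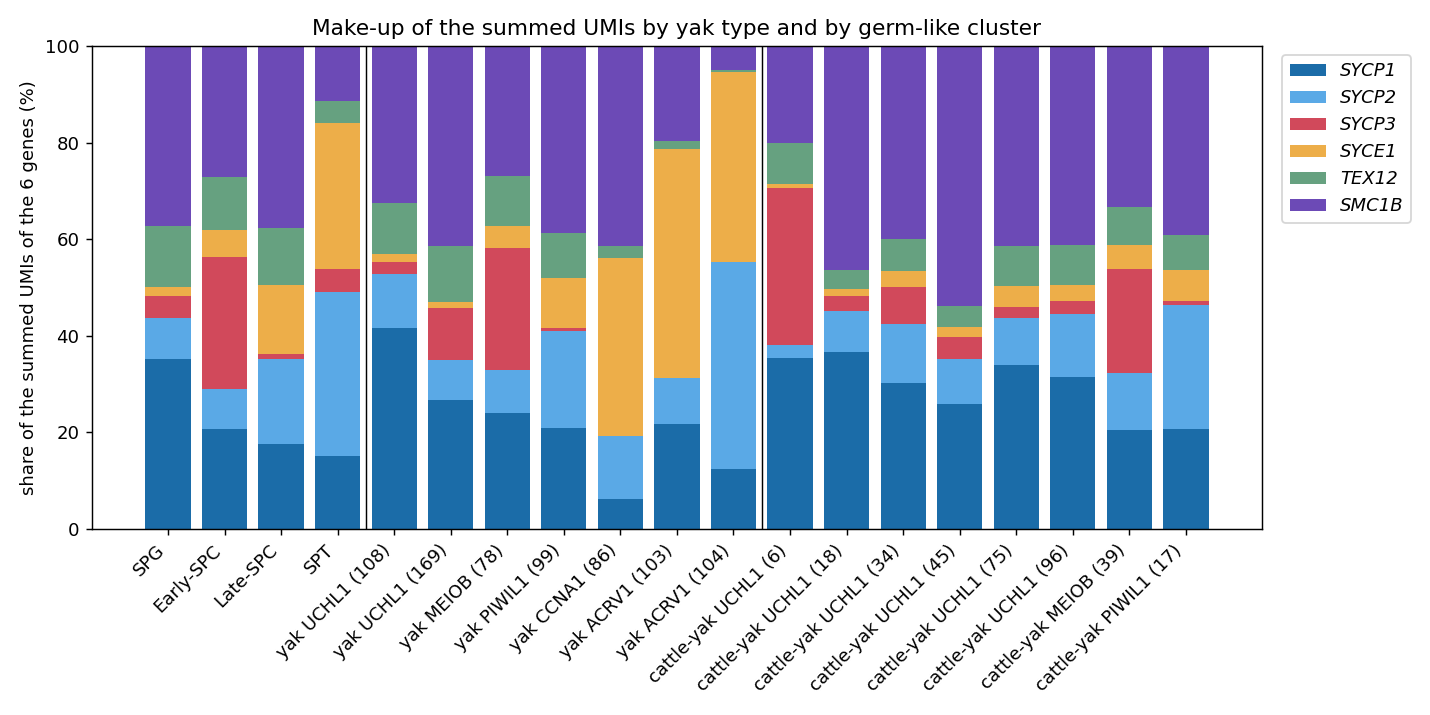
Share of each gene in the summed UMIs of the 6 genes, in percent, for the authors' types and for clusters of germ-like cells in both libraries. *SYCP3* made up 25.3% of the sum in the yak *MEIOB* cluster and 0.689% in the *PIWIL1* cluster, and *SYCE1* 36.9% in the *CCNA1* cluster.

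In the cattle-yak library the 6 genes were all found, with 2866 UMIs of *SYCP1*, 1343 of *SYCP2*, 723 of *SYCP3*, 350 of *SYCE1*, 804 of *TEX12* and 4237 of *SMC1B*. Over the whole libraries these were 65.5, 30.7, 16.5, 8.00, 18.4 and 96.8 CPM, against 97.2, 58.3, 27.5, 55.4, 44.7 and 146 in the yak. All 6 had lower CPM in the cattle-yak, and *SYCE1* by the largest factor. These values mix the level per germ cell with the share of germ cells, which was smaller in the cattle-yak: 108 of 7092 cells within the limits were germ-like, against 1387 of 10324 in the yak. With no upper limits there were 330 and 1749 germ-like cells, of which 66.4% and 23.6% lay above the limits.

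Among germ-like cells within the limits, the cattle-yak had the higher sum, 3385 CPM against 2079, a ratio of 1.63 (1.55 to 1.71). These 2 groups were not alike, with medians of 4977.5 UMIs per cell in the cattle-yak and 1142 in the yak. In the same order, *PECAM1* was at 13.5 and 138 CPM, *MEIOB* at 223 and 147 and *ACRV1* at 0 and 205. The part of depth, somatic RNA and stage in the ratio was not tested. The ratio was 1.90 for *SMC1B*, 1.75 for *SYCP2*, 1.68 for *SYCP3*, 1.51 for *SYCP1*, 1.26 for *TEX12* and 1.10 for *SYCE1* (0.869 to 1.38). No member was higher or lower by a log2 ratio of at least 1, beside 5.82% of 10261 genes higher and 30.0% lower in the cattle-yak. With cells of any depth the direction turned: the sum was 1393 CPM in the cattle-yak and 1487 in the yak, a ratio of 0.937 (0.914 to 0.960). The ratio by gene was then 1.13 for *SYCP1*, 1.11 for *SMC1B*, 1.04 for *SYCP3* (0.953 to 1.14), 0.882 for *SYCP2*, 0.776 for *TEX12* and 0.259 for *SYCE1* (0.230 to 0.290).

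*SYCE1* was thus 3.87-fold higher in yak than in cattle-yak germ-like cells of any depth (3.45 to 4.35). It was the only member of 6 past the log2 ratio of 1, beside 26.8% of 14264 genes lower and 12.0% higher in the cattle-yak. In these cells of any depth it was not alone among genes of the complex. Of 4 synaptonemal complex genes outside the set, 3 were also lower in the cattle-yak and 0 higher, with a median log2 ratio of −1.48. Within the limits 1 of 3 such genes was higher and 1 lower, beside 5.82% and 30.0% of 10261 genes. Between the clusters with the highest *PIWIL1* of each library 1 of 3 was higher and 1 lower, beside 6.11% and 13.0% of 6354. The germ-like cells of the libraries did not cover the same stages. *ACRV1* had 0 UMIs among the 6402353 of the cattle-yak germ-like cells, and *CCNA1* was at 10.3 CPM against 183 in the yak. In the yak, *SYCE1* was at 394 and 301 CPM in the *CCNA1* cluster and the first *ACRV1* cluster, for which the cattle-yak had no counterpart by these markers. For *SYCE1*, the mix of stages and the level at a given stage cannot be told apart in these sums.

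The clusters with the highest *MEIOB* of each library were set side by side, although they were not alike in their stage markers. *MEIOB* itself was at 405 CPM in the cattle-yak and 634 in the yak cluster, *UCHL1* at 249 and 101, and the spermatogonial gene *DMRT1* at 43.6 and 2.07. The part of this in the member ratios was not tested. The cattle-yak cluster with the highest *MEIOB* held 39 cells with *SMC1B* at 1840 CPM, *SYCP3* at 1189, *SYCP1* at 1124, *SYCP2* at 657, *TEX12* at 439 and *SYCE1* at 268. The ratio to the yak *MEIOB* cluster was 0.766 for the sum (0.723 to 0.811). By gene it was 0.592 for *TEX12* (0.484 to 0.722), 0.648 for *SYCP1* (0.571 to 0.734), 0.651 for *SYCP3* (0.576 to 0.735), 0.808 for *SYCE1* (0.614 to 1.06), 0.947 for *SMC1B* (0.853 to 1.05) and 1.04 for *SYCP2* (0.871 to 1.25). The first 3 lay beyond counting error and the last 3 did not, and none reached a log2 ratio of 1 in size, beside 9.51% of 4341 genes higher and 8.20% lower. A single cattle-yak cell held 60 UMIs of *SYCP3*, 15.7% of the cluster's, and without it the level was 1051 CPM.

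The cattle-yak cluster with the highest *PIWIL1* held only 17 cells, with *PIWIL1* at 597 CPM against 1150 in the yak cluster. *SYCP3* was at 32.6 CPM there (14.9 to 61.8, 9 UMIs), so the *MEIOB* to *PIWIL1* ratio was 36.5 (19.0 to 80.4). *SYCP3* was the only member lower there by a log2 ratio of 1, and 0 were higher, beside 23.9% and 29.5% of 4280 genes, and in both libraries *SYCP3* had the highest such ratio of the 6 genes. *SMC1B* was at 1524 CPM, *SYCP2* at 1006, *SYCP1* at 804, *TEX12* at 286 and *SYCE1* at 246. Against the yak *PIWIL1* cluster the ratio was 1.52 for *SYCP2* (1.32 to 1.73) and 0.719 for *SYCE1* (0.550 to 0.927), and 0 of 6 members passed a log2 ratio of 1, beside 6.11% of 6354 genes higher and 13.0% lower. In the median cell the direction for *SYCE1* turned, at 223 CPM in the cattle-yak and 194.5 in the yak cluster. *SYCP2* was at 949 and 700 in the same way. A single cattle-yak cell held 23.5% of the cluster's *SYCE1* UMIs and 18.3% of its *SYCP2* UMIs.

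In the 6 *UCHL1* clusters of the cattle-yak the sum ranged from 754 to 2346 CPM, the highest being in a cluster of only 6 cells. That cluster had *UCHL1* at 250 CPM, against 1627 to 2450 in the others and 249 in the *MEIOB* cluster. It held 0 UMIs of *DMRT1*, so its place among spermatogonial clusters is uncertain. The cluster of 96 cells with *UCHL1* at 2162 CPM held *SMC1B* at 333, *SYCP1* at 254, *SYCP2* at 105, *TEX12* at 65.7, *SYCE1* at 26.8 and *SYCP3* at 21.3. The cluster of 45 cells with *UCHL1* at 1627 CPM held *SMC1B* at 1050, *SYCP1* at 504, *SYCP2* at 182, *SYCP3* at 89.8, *TEX12* at 84.0 and *SYCE1* at 40.5. *SYCE1* lay between 15.6 and 40.5 CPM in all 6 of these clusters, where the 15.6 was 1 UMI in the cluster of 6 cells. In the 2 described *UCHL1* clusters of the yak it lay between 22.7 and 27.6. The shallower yak clusters with *UCHL1* as the highest stage marker held 0 to 6 UMIs of *SYCE1* each and are not part of this range. *SYCP3* ranged more widely in the cattle-yak clusters, from 17.2 CPM in 75 cells to 766 in the cluster of 6 cells (49 UMIs, 567 to 1013). All 6 members were found in 29 of 39 cells of the *MEIOB* cluster (74.4%) and in 4 of 17 of the *PIWIL1* cluster. The cells were not thinned, and the medians were 8055 and 12547 UMIs.

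Outside germ cells, 5 of the 6 genes were low. Over the yak somatic classes within the limits, *SYCP1*, *SYCP2*, *SYCP3*, *SYCE1* and *SMC1B* ranged from 0 to 8.12 CPM, and *SYCP3* did not exceed 0.864. In the cattle-yak the same genes ranged from 0 to 11.7 CPM, the highest being *SYCP1* in 132 Sertoli-like cells, with 4 UMIs. *SYCE1* had 0 UMIs in the T/NK-like, macrophage-like, muscle-like, lymphatic, pericyte-like and Sertoli-like cells of the cattle-yak.

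*TEX12* differed from the other members. In the yak it was at 56.0 CPM in T/NK-like cells (51.0 to 61.4, 454 UMIs in 400 of 3687 cells) and at 74.7 in macrophage-like cells (56.8 to 96.3, 59 UMIs in 51 of 214 cells), and between 0 and 6.67 in the other somatic classes. These were 14.9-fold (11.5 to 19.4) and 19.8-fold (13.7 to 28.4) above the other somatic cells. In the cattle-yak it was at 22.7 CPM in T/NK-like cells (18.0 to 28.3, 79 UMIs) and 46.9 in macrophage-like cells (29.0 to 71.7, 21 UMIs in 16 of 104 cells), and between 0 and 2.91 elsewhere. The 2 blood cell classes thus stood above the other somatic classes in both libraries, at levels below that of SPG (116 CPM), and the B cell-like cells of the yak held *TEX12* in 0 of 113 cells. In the yak both classes were above SPT (18.4 CPM, 5 UMIs), and their intervals overlapped that of SSC (45.7 CPM, 7 UMIs).

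**Figure D5:**
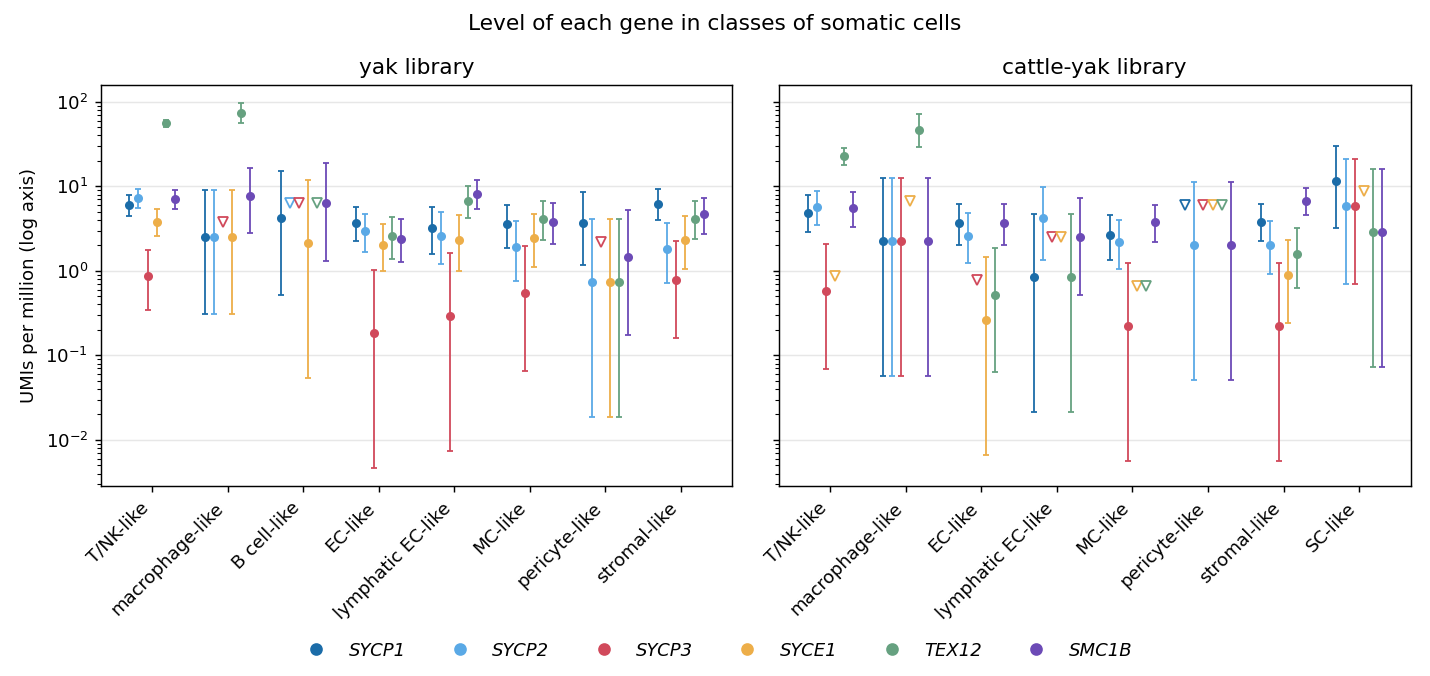
Level of each gene in the rebuilt somatic classes of both libraries, in CPM on a log axis, with exact 95% Poisson intervals and open triangles for the limit of 3 counts where none was found. *TEX12* was at 56.0 and 74.7 CPM in the T/NK-like and macrophage-like classes of the yak and at 22.7 and 46.9 in those of the cattle-yak, and the other members stayed below 12 CPM.

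The T/NK-like signal was found in each of the 5 yak clusters of that name, which ranged from 53.3 to 72.0 CPM of *TEX12*. The 5 of the cattle-yak spread more widely, from 9.09 (1.10 to 32.8, 2 UMIs) to 35.7 CPM. In T/NK-like against the other somatic cells of the yak, 2 of 5 members tested (*SYCP2* and *TEX12*) were higher and 0 lower, beside 10.7% and 24.9% of 13423 genes, and *SYCP2* reached only 7.28 CPM. In macrophage-like cells 1 of 5 members was higher and 0 lower, beside 12.6% and 27.1% of 12584 genes. In the cattle-yak 1 of 4 members was higher and 0 lower in T/NK-like cells, beside 8.68% and 24.1% of 12248 genes, and likewise in macrophage-like cells, beside 12.3% and 33.8% of 11729. *TEX12* was among the higher members each time. Germ cell markers in the T/NK-like cells of the yak were at 101 CPM for the whole spermatocyte list and 49.1 for the spermatogonial list, against 2279 and 1355 in Early-SPC. Against EC-like cells, *ACRV1* was higher in T/NK-like cells (18.3 against 9.15 CPM), as was *PIWIL1* (3.82 against 0.732). *UCHL1* was at 13.1 and 13.4. The ratio of *TEX12* to *SYCP1* differed between classes: in the germ-like cells of the yak there were 753 UMIs of *TEX12* and 1630 of *SYCP1*, and in EC-like cells 14 and 20, but in T/NK-like cells 454 and 49 and in macrophage-like cells 59 and 2. Whether RNA from germ cells was counted in the somatic cells was not tested.

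The next genes to *TEX12* in the order of the RefSeq annotation of the yak assembly Bosgru_T2T1.0, which is another assembly than that of the files, are *IL18*, a cytokine of macrophages, and *BCO2*, a carotenoid-cleaving enzyme. *IL18* was at 89.9 CPM in yak macrophage-like cells, 12.5 in T/NK-like cells and 3.48 in EC-like cells, and *BCO2* at 24.0, 12.0 and 8.60. Whether reads of a neighbouring transcript were counted for *TEX12* was not tested.

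The other genes of the pathway followed in part. Of the other synaptonemal complex genes listed, 4 of 7 had a symbol in the files. *SYCE2*, another central element gene, was at 4.85 CPM in SPG, 133 in Early-SPC and 65.1 in Late-SPC, and *C14orf39*, a further central element gene, at 33.9, 270 and 63.0. Both of the 2 genes of this list with enough counts were higher in Early-SPC than in SPG, beside 24.8% of all genes. Against Late-SPC, 2 of 3 genes of the list were higher and 1 lower in Early-SPC, beside 28.3% and 39.4% of 4968 genes. Against the somatic classes, 2 of 3 were likewise higher and 1 lower in Early-SPC, beside 24.5% and 46.8% of 13650.

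Meiotic cohesin had 2 of 3 listed genes. *STAG3*, the meiotic STAG subunit, was at 16.2 CPM in SPG, 119 in Early-SPC and 39.9 in Late-SPC, a course like that of *SMC1B*. *REC8*, a meiotic kleisin, was at 24.2 CPM in SPG (15 UMIs), 3.51 in Early-SPC (1 UMI) and 0 in Late-SPC. In the deep yak clusters it was at 25.9 and 91.5 CPM (255 UMIs in the latter) in the first and second *UCHL1* clusters and had no UMI in the *MEIOB* cluster. *REC8* and *SMC1B*, which can form part of the same cohesin ring, were therefore highest in different clusters among the 7 described in the yak.

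Of the axis and partner genes 7 of 11 were found, and 5 of the 6 with enough counts were higher in Early-SPC than in SPG and none was lower, beside 24.8% and 35.9% of all genes. *HORMAD1* was at 46.9 CPM in SPG, 232 in Early-SPC and 109 in Late-SPC, and *HORMAD2* at 22.6, 147 and 267, both being HORMA domain proteins of unsynapsed axes. *TRIP13*, the ATPase that removes HORMA domain proteins from axes, was at 59.8, 513 and 10.5, so Early-SPC were 48.8-fold above Late-SPC (20.5 to 153). *TEX11*, a protein of recombination sites on synapsed axes, was at 260, 1029 and 52.5. *HORMAD1* was also high in macrophage-like cells, at 863 CPM in the yak (682 UMIs) and 947 in the cattle-yak (424 UMIs), against 38.2 and 37.1 in T/NK-like cells. The next highest somatic class was lymphatic EC-like, at 94.5 and 89.3 CPM, so *HORMAD1* was not low in all other somatic cells. Its nearest neighbours in the RefSeq order, *GOLPH3L* and *CTSS*, have no symbol in the files and were not analysed here.

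The cohesin subunits that mitotic cells also use were lower in Late-SPC than in SPG in 4 of 4 genes, beside 29.2% of all genes, with a median log2 ratio of −2.44 against −0.15 for all genes. *SMC3*, which pairs with *SMC1B* in the meiotic ring, was 2.16-fold higher in Early-SPC than in SPG and 10.6-fold higher than in Late-SPC. *RAD21*, the mitotic kleisin, was lower in Early-SPC than in SPG, at 45.7 against 246 CPM, a ratio of 0.186 (0.0967 to 0.327). At that step 1 of the 4 genes tested was higher and 1 lower, beside 24.8% and 35.9% of all genes. Of the loading and release genes 3 of 8 were higher and 1 lower in Early-SPC than in SPG, beside the same 24.8% and 35.9%, with *WAPL*, which opens cohesin rings, at 275 and 586 CPM and *SGO2*, which protects centromeric cohesin, at 231 and 541. Between the *MEIOB* clusters of the libraries, *PDS5A* was the only gene of these lists past a log2 ratio of 1, at 2.54-fold higher in the cattle-yak. It was 1 of 8 loading and release genes tested, beside 9.51% higher and 8.20% lower of 4341 genes. The other lists, with 2 synaptonemal complex, 1 meiotic cohesin, 6 axis and 4 shared cohesin genes tested, had 0 higher and 0 lower.

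Across the 5 typed germ groups and 8 somatic classes of the yak (13 groups), the genes closest in pattern to each member were sought among 12052 genes by Pearson's r of log2(CPM + 1). The groups share 1 library and differ in depth, so r is a description. For *SYCP1* the closest gene with a symbol was *C1orf146*, a gene of meiotic recombination (0.99), for *SMC1B* *DNAJC2* (0.99) and *TOPBP1* (0.98), for *SYCE1* *TERB2*, a meiotic telomere gene (0.99), and *MGAT4D* (0.97), for *SYCP2* *PPP6R2* (0.98) and *NSG2* (0.97), for *SYCP3* *ESF1* (0.98) and *MTMR6* (0.97), and for *TEX12* *WAPL* (0.94) and *KIF23* (0.93). By Spearman's rank correlation *C1orf146* remained among the first 3 for *SYCP1* and *DNAJC2* for *SMC1B*, whereas most of the others were replaced. Among the members themselves r ranged from 0.66 for *SYCE1* and *TEX12* to 0.97 for *SYCP1* and *SMC1B*.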

How the data were processed

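The authors deposited, for each of the 2 libraries, raw UMI counts by gene and barcode, with no normalization. The file headers name Cell Ranger 5.0.0 and the submitters' processing notes Cell Ranger 2.1.1, and the methods of the study name BosGru3.0 as the genome. The members and gene lists were chosen with earlier results of these data known.

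Cells of the authors' germ types were taken by barcode. Other cells were kept below the mean + 2 SD of genes (yak 3637, cattle-yak 3275) and UMIs (21212 and 16018) and below 30% mitochondrial UMIs, which left 10324 and 7092 cells. They were clustered without the members and the other pathway genes (scanpy 1.11.5, igraph 0.11.9, 2000 variable genes, 30 components, 15 neighbours, Leiden resolution 1, seed 0, under Python 3.11.15, numpy 2.4.6, scipy 1.17.1, pandas 2.3.3, scikit-learn 1.9.0 and matplotlib 3.10.9). A class was named from at least 3 markers with a log2 ratio of at least 1 and a UMI in at least 10% of cells, and the spermatogonial, spermatocyte and spermatid lists were merged as germ-like. A further clustering had no upper limits. Names rebuilt in this way may differ from the study's.

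Counts were summed over the cells of a group and given as CPM with exact 95% Poisson intervals, and ratios with exact conditional intervals. Calls used at least 20 counts and a log2 ratio of CPM + 1 of at least 1. Where no UMI was found, 3 counts gave the limit. Shares of cells were computed after thinning each cell to 500 UMIs, with exact binomial intervals. The named genes were the 6 members, the pathway lists, the 3 genes most like each member among those with at least 50 counts and the 3 leading genes of each cluster. The caller Scrublet marked 0 yak and 251 cattle-yak cells, and none was removed. The scripts were tested on simulated data. Alternatives covered the denominator, the weighting of cells, depth, mitochondrial and upper limits, pseudocount, resolution, thinning, count minimum and threshold. No sequence is shown.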

Additional observations from a re-analysis of the deposited data

Results flagged for a closer look

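Cells at or above the mitochondrial limit of 30% entered no comparison between cell groups, although the totals of the whole libraries include them, and the members were counted in them above the limit that a count of 0 allows. In the yak, the 6 genes together were at 97.8 CPM in these 877 cells (84.1 to 113), with 183 UMIs in 66 cells. In the cattle-yak they were at 168 CPM in 1310 cells (158 to 179), with 972 UMIs in 155 cells. *SMC1B* gave 59 of these UMIs in the yak and 429 in the cattle-yak.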

How the results depend on the processing

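No paired analysis was possible because each group is 1 library of 1 animal. Over 46 ratios, 285 of 291 alternatives kept the direction, a count that leaves out changes of size. The exceptions were the cattle-yak to yak ratio of germ-like cells without upper limits, 0.937 for the sum, 0.882 for *SYCP2*, 0.776 for *TEX12* and 0.259 for *SYCE1*, the *SYCE1* ratio at a Leiden resolution of 2 (0.914), and *SYCP3* in Late-SPC against SPT without the 10% of cells with the highest doublet scores (1.73, from 7 and 5 UMIs in all cells). With every cell weighted equally, the ratio of the sum was 6.44 for Early-SPC to SPG, 2.66 for Late-SPC to SPT, 95.3 for Early-SPC to the somatic classes and 2.37 for cattle-yak to yak germ-like cells. Late-SPC to SPT was 5.58 over cells with at least 1000 UMIs. The cattle-yak to yak ratio was 1.79 without mitochondrial and rRNA features and 1.41 at a resolution of 2. Thinned to 1000 UMIs, 100% of the Early-SPC deep enough held a member. At a log2 ratio of 2, 6 of 6 members were higher and 0 lower in Early-SPC than in SPG, beside 10.2% and 20.3% of 5454 genes. In Early-SPC against Late-SPC 2 of 6 were higher and 0 lower, beside 14.9% and 24.6% of 4968. In Late-SPC against SPT 3 of 5 were higher and 0 lower, beside 8.41% and 10.7% of 5138. In SSC against SPG 1 of 5 was lower and 0 higher, beside 7.31% and 1.83% of 5035. The causes of these shifts were not tested. Among the authors' types other than Early-SPC, *SYCP3* rested on few UMIs: 1 in SSC, 26 in SPG, 7 in Late-SPC and 5 in SPT. All members rested on few UMIs in SSC, where counts were between 0 and 27.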
